A study of Homo sapiens with 5 samples.

Results

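The HOX genes encode homeodomain transcription factors that lie side by side in the HOXA, HOXB, HOXC and HOXD clusters. Members were the GENCODE protein-coding genes named HOXA, HOXB, HOXC or HOXD followed by a number, which gave 39 of the 19970 coding genes on chromosomes 1 to 22 and X, with 11 in HOXA, 10 in HOXB, 9 in HOXC and 9 in HOXD. Chromatin occupancy of the retinoblastoma protein (Rb) was profiled by CUT&RUN, which sequences DNA fragments cut free by a nuclease tethered to an antibody. The cells were parental ZR-75-1, a long-established line of oestrogen receptor-positive breast cancer, given abemaciclib, a CDK4/6 inhibitor, at 500 nM or DMSO for 4 days. Each treatment had 2 Rb libraries, and a further library, made with IgG2a from DMSO-treated cells, was the negative control. The study describes the replicates as separate cultures, each with its own profiling reaction. It also reports 2 independent runs of this profiling, and which run gave each library is not stated.

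HOX genes set position along the body axis in the embryo, and the order of genes in a cluster follows the order of their domains. Genes of paralogue groups 1 to 3 act in anterior regions and those of groups 9 to 13 in posterior regions. The clusters are dense in CpG dinucleotides, as active CpG-island promoters are, but in cells that do not use them they are a classic target of Polycomb repression. Rb is a pocket protein that binds E2F transcription factors, and phosphorylation by CDK4 and CDK6 weakens its hold on them. How Rb peaks were placed in these CpG-rich developmental loci, compared with other CpG-rich promoters, is the question addressed here.

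With DMSO the 2 Rb lists held 1438 and 2582 peaks, with abemaciclib 13960 and 12234, each in replicate order, and the IgG2a list held 589. Median peak width was 277 and 256 bp in DMSO and 755 and 726 bp with abemaciclib. Peak lists give no read totals. Local background was recovered from the fold and p-value of peaks with a −log10 p of at most 40. Its floor, a low quantile near the lowest value, lay between 0.521 and 0.677 fragments in the 4 Rb libraries.

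A gene was called bound in a library when a peak overlapped the stretch from 2000 bp before to 500 bp after any of its transcription start sites (TSSs). In DMSO, no HOX gene was bound in replicate 1 and 1, HOXC13, was bound in replicate 2. With abemaciclib, 10 HOX genes were bound in replicate 1 and 6 in replicate 2. The IgG2a library had no peak at any HOX promoter or elsewhere in the clusters. Of its 589 peaks, 282 lay on sequences outside the reference used, and it held 0.0277 peaks per Mb over whole chromosomes. With so few peaks, their absence says little about background in the clusters. All 6 genes bound in abemaciclib replicate 2 were also bound in replicate 1. HOXC13 had a peak in DMSO replicate 2 and in both abemaciclib libraries. HOXB3, HOXB7, HOXC10, HOXC11 and HOXD12 were bound in the abemaciclib libraries, both times, and never in DMSO. HOXA6, HOXA9, HOXC9 and HOXD13 had one in abemaciclib replicate 1 alone.

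The 2 abemaciclib libraries averaged 8 ± 2.83 bound HOX genes (SD, n = 2) and the 2 DMSO libraries 0.5 ± 0.707 (SD, n = 2), without overlap. The exact two-sided permutation test gave p = 0.333, the smallest value that this test allows for 2 libraries against 2, so it cannot pass 0.05. Among all coding genes, 7.86% (replicate 1) and 12.4% (replicate 2) were bound with DMSO, and 58% and 53.9% with abemaciclib. The HOX shares lay below these values in every Rb library, at 0% and 2.56% with DMSO and 25.6% and 15.4% with abemaciclib. When each list was cut to its 1438 strongest peaks, no HOX gene was bound with abemaciclib and the direction turned, since HOXC13 stayed bound in DMSO replicate 2.

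Sequences are shown for 3 of the regions with a peak in both abemaciclib libraries. They were among the 6 best placed by rank of the p-value in abemaciclib replicate 1, and were taken around its summit, on the plus strand of hg38, with UTR bases left out. Capitals mark matches, on either strand, to an E2F-type motif (TTNNCGC with C or G at each N), the NF-Y box CCAAT or the cell cycle homology element TTTGAA, which do not share bases here.
between HOXA7 and HOXA9, chr7:27160875-27161074: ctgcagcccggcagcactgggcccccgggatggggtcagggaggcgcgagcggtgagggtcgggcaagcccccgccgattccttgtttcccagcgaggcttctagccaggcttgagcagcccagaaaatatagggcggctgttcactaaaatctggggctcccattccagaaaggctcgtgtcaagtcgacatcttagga
intron of long HOXC4 and HOXC6 transcripts, chr12:54021697-54021896: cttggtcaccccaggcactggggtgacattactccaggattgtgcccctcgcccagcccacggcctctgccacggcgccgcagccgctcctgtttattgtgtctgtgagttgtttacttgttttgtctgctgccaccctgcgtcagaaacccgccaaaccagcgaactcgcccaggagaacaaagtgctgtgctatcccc
HOXB4 coding exon and neighbouring intron, chr17:48576876-48577075: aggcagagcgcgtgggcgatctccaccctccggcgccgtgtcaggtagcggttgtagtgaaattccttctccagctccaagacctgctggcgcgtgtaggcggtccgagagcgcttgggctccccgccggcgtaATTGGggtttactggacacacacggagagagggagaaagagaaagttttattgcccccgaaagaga

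The HOXB4 stretch carried CCAAT on the minus strand, while the other 2 held none of the letters searched. Over the 17 regions of the 4 clusters, the 200 bp around the summit held an E2F-type motif in 3, CCAAT in 2 and TTTGAA in 2. Among all 13836 abemaciclib replicate 1 peaks on these chromosomes, the same windows held them in 16.9%, 18.4% and 4.37%. A match is a description of letters and not of a bound factor.

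Each cluster was then read from 20 kb before its first to 20 kb after its last coding HOX gene. These windows were chr7:27072993-27220091 for HOXA, chr17:48508526-48748750 for HOXB, chr12:53918831-54076030 for HOXC and chr2:176072721-176210907 for HOXD, or 0.683 Mb in all. They held 0 and 1 Rb peaks with DMSO, in replicate order, and 17 and 11 with abemaciclib. The means were 0.5 ± 0.707 and 14 ± 4.24 peaks (SD, n = 2 each; exact two-sided permutation p = 0.333). Peaks covered 0 and 0.157 kb in DMSO and 8.87 and 6.23 kb with abemaciclib, or 0.0785 ± 0.111 and 7.55 ± 1.87 kb (SD, n = 2 each; exact permutation p = 0.333). Both measures were higher in both abemaciclib libraries than in either DMSO library, and both turned direction with lists of equal size, where only the DMSO replicate 2 peak remained. With abemaciclib, the windows held 24.9 and 16.1 peaks per Mb in replicates 1 and 2, beside 4.56 and 4.01 per Mb over whole chromosomes. With DMSO they held 0 and 1.46 per Mb, beside 0.451 and 0.807. Density per Mb does not allow for how closely genes lie. The windows held the 39 HOX genes in 0.683 Mb, beside 19970 coding genes over 3031 Mb. Per gene, 15.4% of HOX genes were bound in both abemaciclib libraries, beside 52.7% of all coding genes.

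**Figure D1:**
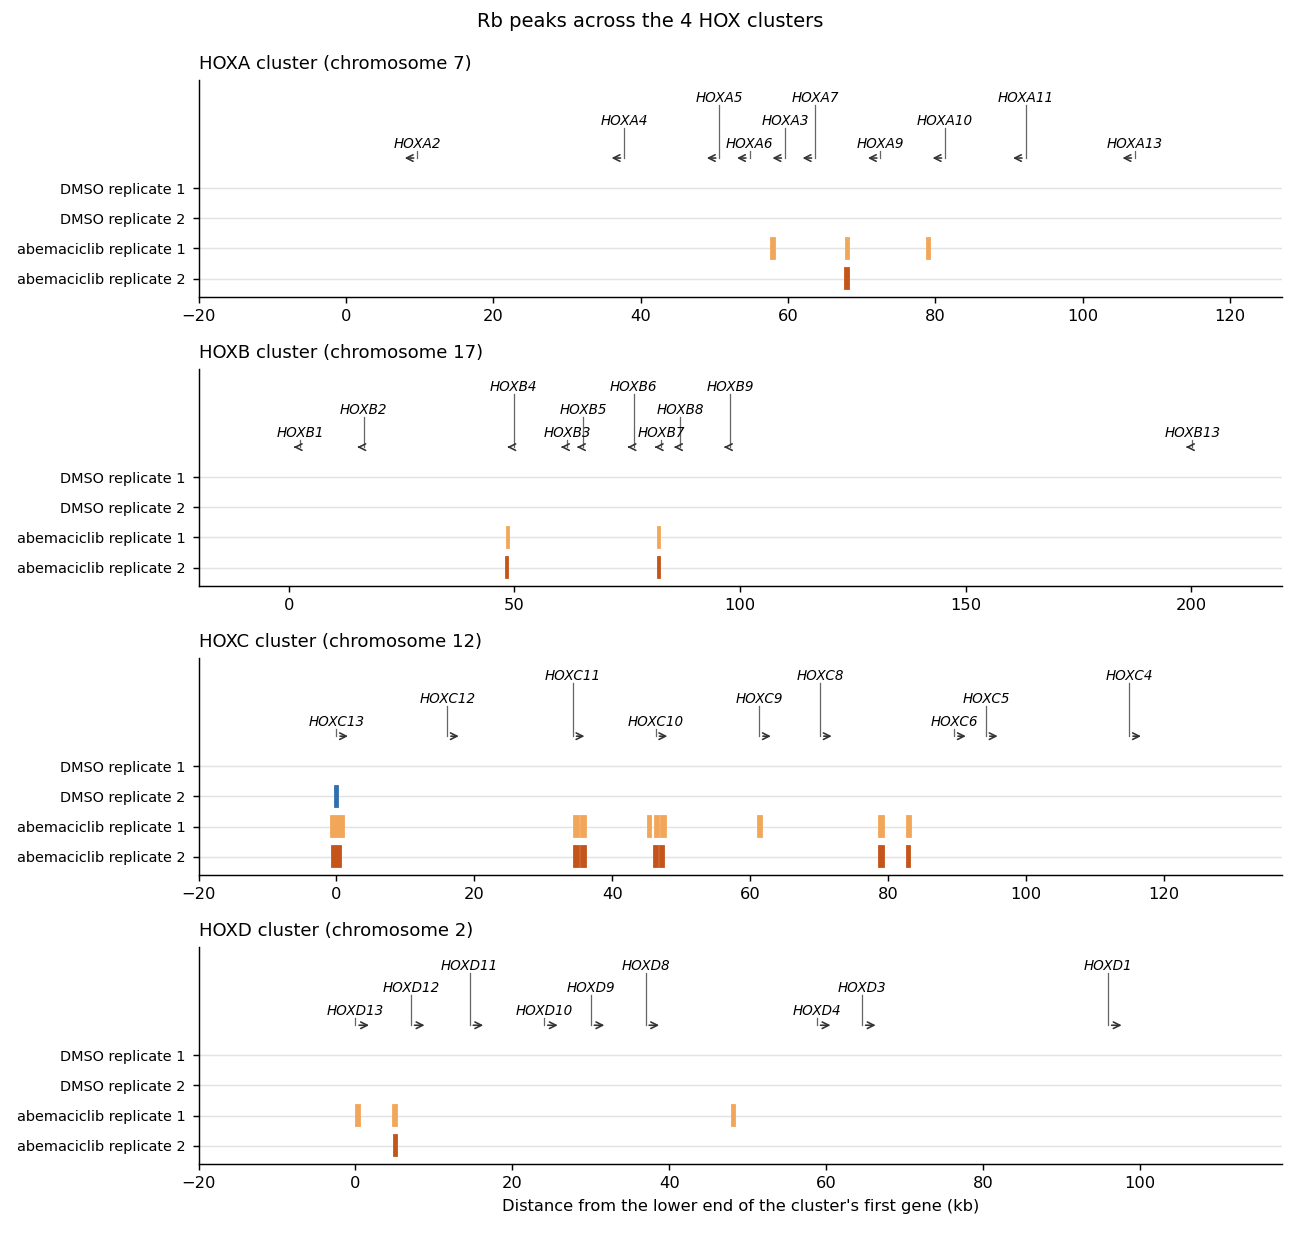
Rb peaks (bars, one row per library) along the 4 cluster windows, by distance in kb from the lower end of each cluster's first gene; arrows mark canonical TSSs and the direction of transcription, and the narrowest peaks are widened to be visible. HOXC holds 9 of the 17 and 7 of the 11 abemaciclib peaks, and the single DMSO peak lies at HOXC13.

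Merged across libraries, the peaks made 17 regions. The HOXC13 region alone had a DMSO peak, 10 others were seen in both abemaciclib libraries and 6 in abemaciclib replicate 1 alone. A coding promoter was overlapped by 12 regions and a CpG-rich segment by 11. Summit pileup, the number of fragments over a summit, was 6 to 15 (median 10) for the 6 replicate 1 regions without a replicate 2 peak and 8 to 51 (median 12) for the 11 others, so the ranges overlapped.

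The HOXC cluster held most of the signal, with 6.42 and 4.80 kb in peaks in abemaciclib replicates 1 and 2. HOXC13, at the posterior end and best known for its part in hair and nail differentiation, had the strongest peak of the 4 clusters. Its region, chr12:53938011-53939925, covers the promoter shared with the antisense RNA HOXC13-AS. The peak was 157 bp wide in DMSO replicate 2, 1915 bp in abemaciclib replicate 1 and 1364 bp in replicate 2. Its summit pileup was 14, 51 and 33 fragments over a local background of 0.757, 0.726 and 0.573, and its fold enrichment within the library 8.54, 30.1 and 21.6. The summits lay 177, 129 and 114 bp upstream of the TSS. The peak ranked 553 of 2582 in DMSO replicate 2, 2111 of 13960 in abemaciclib replicate 1 and 2628 of 12234 in replicate 2.

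The region of next highest pileup, chr12:53974270-53975091, was not at a coding promoter. It lies in introns of HOXC11 and of HOTAIR, a long non-coding RNA transcribed against HOXC11, and overlaps a HOTAIR promoter. It had a summit pileup of 23 and 14 fragments in abemaciclib replicates 1 and 2, and no peak in DMSO. The neighbouring region, chr12:53973320-53974040, made HOXC11 bound. It had pileups of 9 and 12, overlapped the promoter stretch by 288 and 307 bp, and had its summits 866 and 811 bp downstream of the TSS.

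HOXC10, a posterior gene, had 3 regions near its start sites. The first, chr12:53983974-53984173, lay 1131 bp upstream and was called in abemaciclib replicate 1 alone, with a pileup of 7. The second, chr12:53984955-53985641, straddled the canonical TSS with pileups of 11 and 12 in replicates 1 and 2. The third, chr12:53985824-53986586, sat at an alternative start with pileups of 8 and 7. The same stretch also serves as promoter of ENSG00000273049, a coding gene that overlaps HOXC10. HOXC9 was called in abemaciclib replicate 1 alone, with the lowest pileup of the clusters, 6 fragments, at chr12:54000035-54000501.

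A pair of HOXC regions lay outside coding promoters, in introns of long HOXC4 and HOXC6 transcripts. The first, chr12:54017499-54018299, began 68 bp beyond the promoter stretch of a distal HOXC4 start and had pileups of 11 and 9. It overlapped promoters of the long non-coding RNAs ENSG00000260597 and ENSG00000273046. The second, chr12:54021610-54022051, lay 4866 bp downstream of the distal HOXC4 start, with pileups of 12 and 11. Its summit was in an exon of ENSG00000260597. HOXC4, HOXC5, HOXC6, HOXC8 and HOXC12 had no promoter peak in any library.

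In HOXB, 2 of 10 genes were bound, both in both abemaciclib libraries. HOXB3 is an anterior gene, but its peak, chr17:48576647-48577138, was not at its usual start. It lies in a coding exon of HOXB4, 1374 bp downstream of the HOXB4 TSS, and was assigned to HOXB3 only through an alternative start 14691 bp from the canonical one. The pileups were 12 and 10, and HOXB4 itself was not bound. HOXB7, a central gene, was bound through chr17:48610345-48610635, which overlapped the promoter stretch by only 63 and 119 bp, with pileups of 14 and 10. The local background there, 2.49 and 1.56 fragments, was the highest or equal highest of the clusters in each library. HOXB1, HOXB2, HOXB4, HOXB5, HOXB6, HOXB8, HOXB9 and HOXB13 had no promoter peak.

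In HOXD, HOXD12 alone was bound in both abemaciclib libraries. Its region, chr2:176097495-176098035, was intergenic, with summits 1918 and 1894 bp upstream of the TSS and pileups of 11 and 8. HOXD13, a regulator of digit formation, had a peak over a coding exon at chr2:176092798-176093048 in abemaciclib replicate 1 alone, with a pileup of 11. A further replicate 1 peak, chr2:176140668-176141090, lay in an intron of HOXD3 with 2 E2F-type motifs near its summit and a pileup of 11. HOXD1, HOXD3, HOXD4, HOXD8, HOXD9, HOXD10 and HOXD11 had no promoter peak.

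Across the 39 HOX genes, 29 had no promoter peak in any library. In HOXA, no gene was bound in both abemaciclib libraries. HOXA6 was bound in replicate 1 alone at chr7:27150740-27151008, with a pileup of 15, through an alternative start 2829 bp upstream of the canonical one. HOXA9, a key regulator of blood progenitors, was bound in replicate 1 alone through an alternative start 4961 bp upstream, by a peak with a pileup of 9 at chr7:27171844-27172079 that lies in a coding exon of HOXA10. The single region called in both libraries, chr7:27160780-27161083, was intergenic between HOXA7 and HOXA9, with pileups of 20 and 12. HOXA2, HOXA3, HOXA4, HOXA5, HOXA7, HOXA10, HOXA11 and HOXA13 had no promoter peak.

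**Figure D2:**
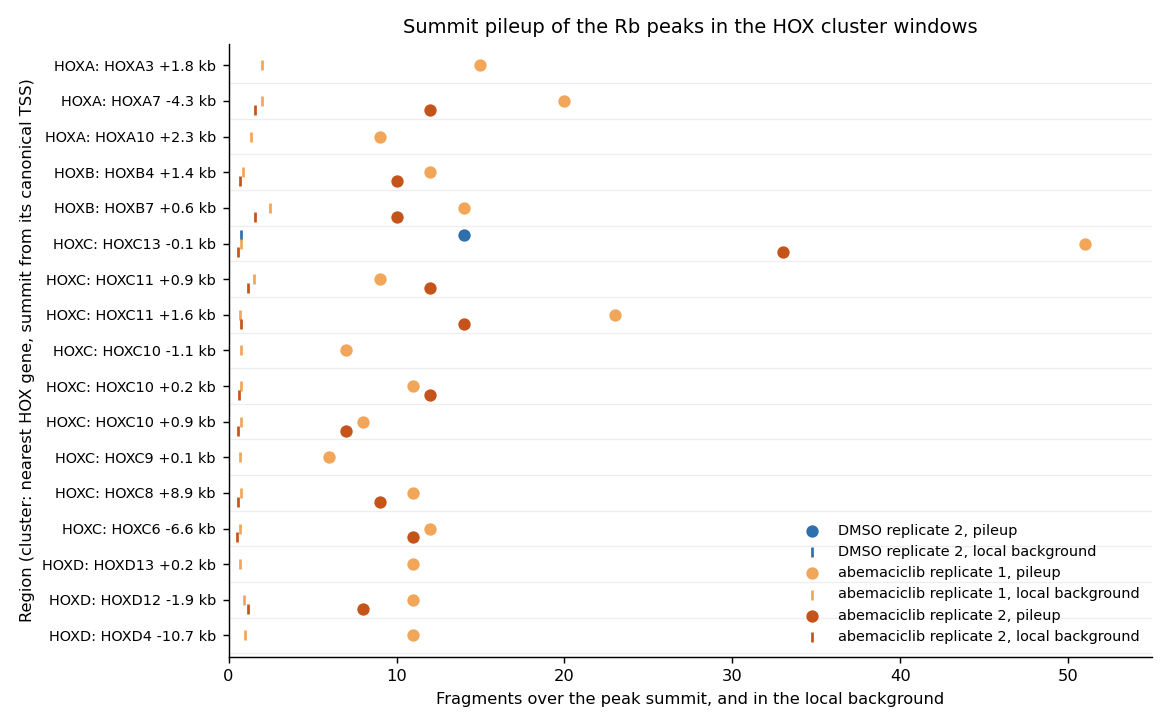
Summit pileup (points) and local background (ticks), in fragments, for each of the 17 regions, labelled by cluster and by distance of the summit from the nearest canonical HOX TSS; only libraries with a peak are drawn. HOXC13 stands at 51 and 33 fragments with abemaciclib, and the other regions lie between 6 and 23.

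By place on the body axis, 4 of 16 posterior genes were bound in both abemaciclib libraries, beside 1 of 15 central and 1 of 8 anterior genes. The share over all coding genes was 52.7%. The genes bound in abemaciclib replicate 1, whether or not also in replicate 2, were 7, 2 and 1 in the same order. CpG-rich promoters made up 15 of 16 posterior, 13 of 15 central and 5 of 8 anterior genes, so the classes also differed in CpG content. They differed in cluster as well, since the posterior genes HOXC10, HOXC11 and HOXC13 lie in HOXC, which has no anterior gene. Genes of a cluster are neighbours and can share a peak, so these counts are a description and were not tested. With canonical starts only, 7 and 5 HOX genes were bound in abemaciclib replicates 1 and 2, and HOXB3, HOXA6 and HOXA9 were the ones lost.

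**Figure D3:**
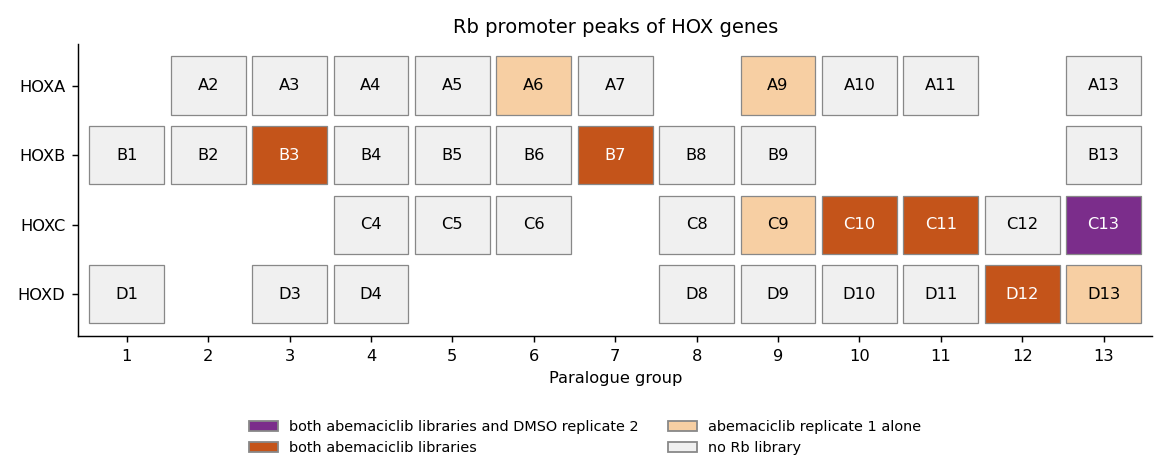
HOX genes by cluster (rows) and paralogue group (columns), coloured by the Rb libraries with a promoter peak. Of the 6 genes bound in both abemaciclib libraries, 4 are in groups 10 to 13; a gene not reported here is left out of the drawing.

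The abemaciclib peaks in the clusters ranked low in their lists. In replicate 1, 15 of 17 ranked below the middle of the list, and in replicate 2, 10 of 11 did. The median peak stood 73.5% and 74.4% of the way down the list, and the best, at HOXC13, 15.1% and 21.5%. Median pileup was 11 fragments in both libraries. Median width was 423 and 442 bp, below the medians of 755 and 726 bp over the whole lists. Local background was above 2 times the library's floor at 5 of 17 and 4 of 11 peaks, and the part of this in the ranks was not tested. All 17 and all 11 passed the least −log10 p of DMSO replicate 1, 5.10.

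The HOX promoters were CpG-rich as a group. A promoter was called CpG-rich when a 500-bp window in its −2000 to +500 bp stretch had at least 55% G and C and a ratio of observed to expected CpG of at least 0.75. By this measure 33 of 39 HOX genes (84.6%) were CpG-rich, beside 66.5% of the other coding genes. HOXB1, HOXB2, HOXB3, HOXB8, HOXB13 and HOXC6 were not. Within 500 bp of the canonical TSS, HOX genes had 21 to 131 CpG dinucleotides (median 74), and other coding genes had a median of 66.

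Of the 33 CpG-rich HOX genes, 9 were bound in abemaciclib replicate 1 and 5 in replicate 2, where the shares over all 13280 CpG-rich promoters were 78.8% and 73.6%. In both libraries, 5 of 33 were bound, or 15.2% (Wilson 95% interval 6.65 to 30.9%), against a background of 72.3%. Other CpG-rich coding promoters stood at 72.4% (71.6 to 73.2%). Over all HOX genes the share was 6 of 39, or 15.4% (7.25 to 29.7%), against a background of 52.7%. The intervals cover counting error only and treat genes as independent, though neighbours in a cluster can share a peak. Bound in both abemaciclib libraries but never in DMSO were 5 of 39 HOX genes, where the background was 38.9%, and 4 of 33 CpG-rich ones, where it was 52.8%.

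No HOX promoter among those with most CpG was bound in both abemaciclib libraries. Among other coding genes, grouped in 10 bins by CpG number, the share bound in both abemaciclib libraries was 6.27% in the bin of 0 to 9 CpG and 78.3% in the bin of 114 to 207. The 2 highest bins held 6 and 2 HOX genes, and none of them was bound in both libraries, where other genes stood at 76.8% and 78.3%. HOXA13, with 131 CpG, and HOXD11, with 123, had no promoter peak in any library, and nor did HOXD1, HOXD9, HOXD8, HOXA4 and HOXA10, with 113, 110, 108, 103 and 99. HOXD13, with 104, was bound in abemaciclib replicate 1 alone. In the bin of 21 to 40 CpG, 1 of 5 HOX genes was bound in both, beside 19.3% of other genes. It was HOXB3, with 24 CpG around its canonical TSS. Its peak lay near an alternative start 14691 bp away, so the bin does not describe the sequence under the peak.

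**Figure D4:**
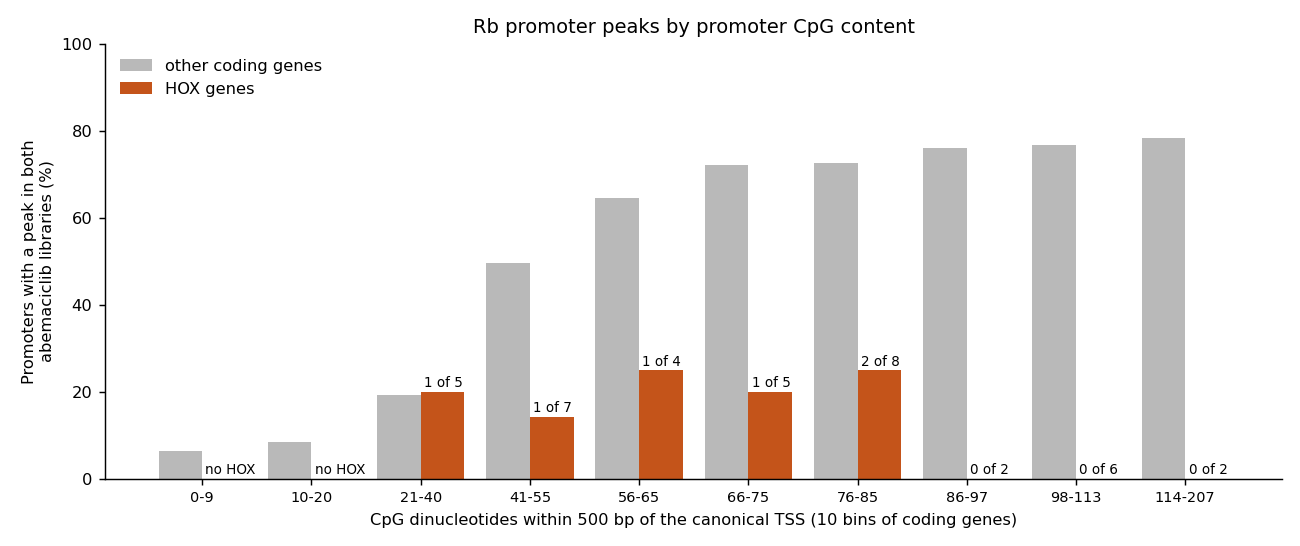
Share of promoters (%) with a peak in both abemaciclib libraries by number of CpG dinucleotides near the canonical TSS, in 10 bins of coding genes; grey bars are other coding genes and orange bars HOX genes, with HOX counts printed. Grey bars climb from 6.27% to 78.3%, while none of the HOX genes in the 3 highest bins has a peak in both libraries.

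CpG-rich segments, merged from the same criterion across the genome, were also counted without reference to TSSs. The cluster windows held 113 of them, covering 109 kb. A peak of both abemaciclib libraries overlapped 8 (7.08%), beside 40.5% of the 24073 segments elsewhere. At coding promoters the shares were 7 of 67 (10.4%) and 59.8%, and for segments of at least 1000 bp 3 of 43 (6.98%) and 58.5%. Of the 10 longest segments of the clusters, 1650 to 2600 bp, 8 had no peak in any library, among them the longest, at HOXD8. The other 2 were in HOXC, where the segment at HOXC11 was marked by both abemaciclib libraries and that at HOXC13 by these and by DMSO replicate 2. By cluster, 5 of 24 segments were marked in both libraries in HOXC, 2 of 33 in HOXB, 1 of 26 in HOXD and 0 of 30 in HOXA.

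Coding genes next to the clusters were counted in the same way. Of the 24 flanking genes, 3 on each side of each cluster and 8.76 to 1028 kb away, 20 were bound in both abemaciclib libraries, where the shares were 52.7% over all coding genes and 72.3% over CpG-rich ones, and 22 of the 24 were CpG-rich. In DMSO replicates 1 and 2, 7 and 8 were bound, where the shares over all coding genes were 7.86% and 12.4%. Over CpG-rich promoters outside HOX, the DMSO shares were 11.2% and 17.6%. CBX5 next to HOXC and CBX1 next to HOXB, which encode heterochromatin proteins, were bound in all 4 Rb libraries, as were ATF7, HNRNPA1, SNX11 and ATP5MC1. The flanking genes not bound in both abemaciclib libraries were EVX1 and EVX2, homeobox genes related to HOX that neighbour HOXA and HOXD, SKAP1 beside HOXB and SMUG1 beside HOXC. EVX2, the nearest, lies 8.76 kb from HOXD. PRAC1 and PRAC2, which lie inside the HOXB window, had no peak.

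Other homeobox and T-box genes were set beside the HOX genes as lists, to be read against 52.7% of all coding genes and 72.3% of CpG-rich ones bound in both abemaciclib libraries. Of 13 HOX-like homeobox genes outside the clusters, 1 was bound in both abemaciclib libraries: MNX1, a motor neuron and pancreas regulator, at rank 3393 and 4560. None of the 13 was bound in DMSO. Of 46 NK-like genes 10 were bound in both, led by VAX2 at rank 3728 and 5674. DLX4, MSX2 and EMX1 were also among them. Of 61 paired, LIM, sine oculis and POU genes 18 were bound, and of 17 T-box genes 6, led by TBX6 and TBX3, the latter a mammary gland regulator, at rank 2514 and 2276. TBX1, TBR1 and MGA followed, and 1 T-box gene had an IgG2a peak.

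The TALE homeobox genes made a further list, which holds the PBX, MEIS and PKNOX genes, whose products bind DNA beside HOX proteins or are close relatives of those cofactors, and other genes such as the IRX family. Of 18 TALE genes, 9 were bound in both abemaciclib libraries, near the 52.7% of all coding genes. They were 4 of 9 PBX, MEIS and PKNOX genes and 5 of 9 others. PKNOX1 was bound in all 4 Rb libraries, at rank 395 and 368 with DMSO and 500 and 662 with abemaciclib. PBX3 was bound in DMSO replicate 2 and in both abemaciclib libraries, and IRX3, IRX5 and MEIS2 in the abemaciclib libraries alone. Of 30 housekeeping genes, all CpG-rich, 26 were bound in both abemaciclib libraries, beside 72.3% of CpG-rich promoters. In DMSO replicates 1 and 2, 5 and 9 of them were bound. The shares there were 11.2% and 17.6% of CpG-rich promoters outside HOX, and 7.86% and 12.4% of all coding genes. SNRPD3, GAPDH, VPS29, TUBB and IPO8 were bound in both DMSO libraries, and ACTB, GUSB and TBP in replicate 2. With abemaciclib, housekeeping genes ranked on either side of HOXC13, which stood at 2111 and 2628. GAPDH ranked above it, at 178 and 75, while ACTB, at 2342 and 2873, and TBP, at 5206 and 4144, ranked below.

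**Figure D5:**
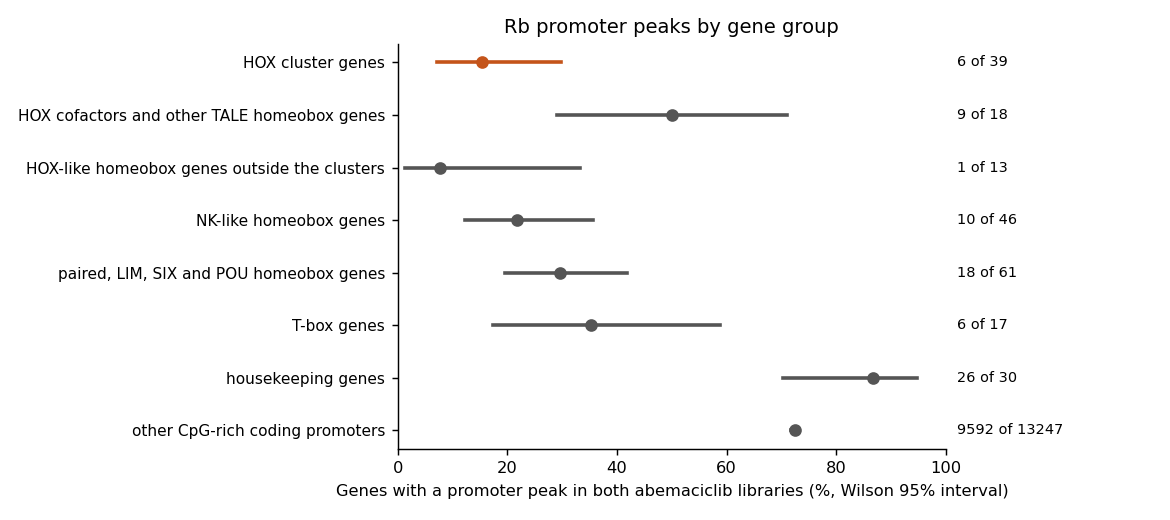
Share of genes (%) with a promoter peak in both abemaciclib libraries, with Wilson 95% intervals as lines and counts at the right. HOX cluster genes (6 of 39) lie near the HOX-like genes (1 of 13) and NK-like genes (10 of 46), and below the TALE (9 of 18) and housekeeping genes (26 of 30).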

How the data were processed

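Rb CUT&RUN peak lists of 4 libraries and 1 IgG2a list were used. The authors trimmed reads, aligned them to hg38 with Bowtie2 2.3.4.1, removed blacklisted and mitochondrial reads, kept duplicates, and called peaks per library with MACS2 2.2.7.1 on paired-end fragments at q 0.05 against IgG. The only IgG library used here came from DMSO-treated cells. Each deposited list gives a fold enrichment (a ratio, with 1 added to both pileup and local background), together with −log10 p and q at the summit. The deposited score, 10 times the −log10 q, was not used. Lists hold no counts over common regions, so no count model was fitted, read depth is unknown, and a place that narrowly missed the threshold counts as having no peak.

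Peaks were joined to GENCODE release 44 on hg38 with Python 3.11.15, pandas 2.3.3 and pysam 0.24.0. The whole-number summit pileup and local background were recovered by solving the fold and the Poisson p together (tolerance 0.002 in −log10 p). Among peaks with a −log10 p of at most 40, at least 99.1% were resolved. CpG-rich segments used 500-bp windows in 50-bp steps. Libraries were compared by exact two-sided permutation tests (SciPy 1.17.1), and shares carry Wilson intervals. The scripts were tested on simulated data. HOX genes and all cluster peaks were named. From other lists, members with a DMSO peak and the 5 best-ranked in abemaciclib replicate 1 were named. Some genes and sequences that these rules select are not reported here, though the genes stay in the counts. Members and lists were chosen with earlier results of these data known.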

Additional observations from a re-analysis of the deposited data

How the results depend on the processing

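The 5 main results were recomputed under 64 alternatives in all, of which 49 stayed close to the reported value, 12 moved and 3 turned direction. Some of the 49 could not move the HOX values. Every cluster peak passed a q of 0.01 and the common p threshold. No IgG2a peak lay in the clusters, so leaving out peaks that overlap one removed none there. The replicate block keeps the means by construction. Lists cut to the 1438 strongest peaks turned direction for abemaciclib minus DMSO in bound HOX genes (−0.5), cluster peaks (−0.5) and kb in peaks (−0.0785), and gave 0 genes bound in both abemaciclib libraries alone and 0% of CpG-rich HOX genes, beside 10.6% of other CpG-rich promoters. This follows from the construction, since the cut removed most abemaciclib peaks. Every cluster peak was among them, as the best ranked 2111 and 2628. The HOXC13 peak of DMSO replicate 2, at rank 553, stayed in and alone gave the turned sign. A q of at most 1e-05 gave a difference of 4.5 bound genes, 2 genes bound in both abemaciclib libraries alone (HOXB3 and HOXC10) and 6.06% of CpG-rich HOX genes. Requiring 50% of a peak in the promoter gave 4.5, 2 and 6.06%. Genes bound in both abemaciclib libraries alone were 3 with a window of 500 bp on either side and 3 with the summit in the window. CpG-rich taken as the 20% of promoters with most CpG gave 0%. Leaving out 1 library in turn gave a difference of 5.5 to 9.5 bound genes, 10.5 to 16.5 cluster peaks and 6.15 to 8.80 kb, 5 to 9 genes bound in the abemaciclib libraries alone, with 9 without abemaciclib replicate 2, and 15.2 to 27.3% of CpG-rich HOX genes. A common p threshold in each list, chosen after seeing the data, moved none of the 5 results, since every cluster peak already passed it. With the replicate block, added after seeing the data, differences within replicate numbers were 10 and 5 bound genes, 17 and 10 cluster peaks and 8.87 and 6.07 kb, with the same means of 7.5, 13.5 and 7.47 and an exact sign-flip p of 0.5 for each, the smallest that 2 pairs allow. The numbers are not stated to pair the libraries. Read depth and signal between peaks are unknown, so weak occupancy below the peak threshold was not detectable.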

Other observations

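Outside the HOX genes, the paired, LIM, sine oculis and POU list held 2 of 61 genes with a peak in DMSO replicate 1 and 4 of 61 in replicate 2, where the shares over all coding genes were 7.86% and 12.4%. POU2F1, which encodes the widely expressed OCT1, was bound in all 4 Rb libraries at rank 193 and 516 with DMSO and 118 and 113 with abemaciclib. PAX9 was bound in all 4 as well, at rank 919, 1620, 1125 and 1195 in the same order. SIX5 and OTX1 were bound in DMSO replicate 2 and both abemaciclib libraries. LHX4 and POU3F1 were bound in both abemaciclib libraries, at rank 2518 and 1280 and at rank 2931 and 5222. These ranks are by p-value within each list, and differences between lists of unequal length were not tested.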
